A study of Mus musculus with 28 samples.

Results

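Phenobarbital was compared with control on 8 two-colour arrays that carried 1.5X cDNA input, chosen from their titles among the 28 arrays of the series. Each array held the liver cDNA of 1 phenobarbital mouse and 1 control mouse, in the dyes Cy5 and Cy3. The animals were male B6C3F1 mice with a stated age of 42 days, 3 per group. The exposed mice had phenobarbital at 0.05% in their drinking water for about 4 weeks, and the control mice had drinking water alone. All RNA came from paraffin blocks of formalin-fixed liver that were 16 years old. Every mouse was measured in both dyes. Phenobarbital mice 1 and 2 and control mouse 3 had their Cy3 label in slide row 1, and the other 3 mice in row 2, with the rows turned round in Cy5. Phenobarbital mouse 1 with control mouse 2 (arrays 3 and 4) and phenobarbital mouse 2 with control mouse 2 (arrays 5 and 8) were each hybridized again in the same dyes, and such repeats were averaged. The replicate is the mouse. Tissue was whole liver, so a lower share of a cell type and less RNA per cell cannot be told apart.

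Phenobarbital is a sedative and the classic inducer of drug metabolism in rodent liver. It releases the constitutive androstane receptor, CAR, to the nucleus, where CAR with its partner RXR switches on cytochromes P450 of the 2b and 2c families, their electron donor Por, and conjugating enzymes such as glutathione transferases. Prolonged exposure enlarges the rodent liver and pushes hepatocytes into the cell cycle.

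The 2 dyes differed widely in how much of the transcriptome they could show. In Cy3, between 34.4% and 42.8% of the 55681 probes were well above background on an array, by the flag of the scanner software. In Cy5 the share lay between 2.98% and 7.43%. The median negative control read 67 to 95 in Cy3 against a local background of 36 to 41, and 65 to 69 in Cy5 against a local background of 64 to 68. No spot was saturated. All 12 hepatocyte markers on the list used were well above background on every array in Cy3, and 10 of the 12 in Cy5. Over the probes tested, Cy3 values of any 2 arrays correlated at 0.963 to 0.996. Cy5 values of arrays 3 and 4, both control mouse 2, correlated at 0.683 to 0.873 with the other arrays and at 0.987 with each other, against 0.887 to 0.963 among the other 6. The deposited log ratios, turned to phenobarbital over control, correlated at 0.322 to 0.572 between arrays of the same dye orientation and at -0.579 to -0.235 between arrays of opposite orientation, over all probes.

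**Figure D1:**
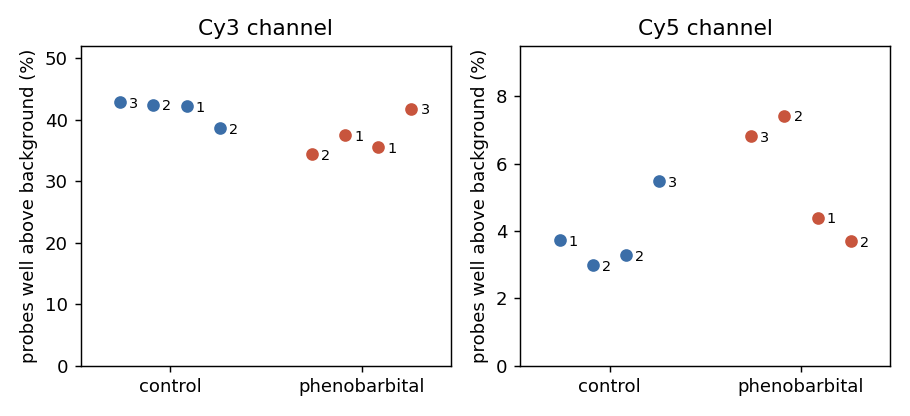
Share of probes well above background (percent, vertical axis) on each of the 8 arrays, by dye and exposure; each point is 1 array and its number is the mouse. Cy3 points lie between 34.4% and 42.8%, and Cy5 points, on an axis of their own, between 2.98% and 7.43%.

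The share of probes well above background in Cy3 was 41.9% ± 1.19 (SD, n = 3 mice) in controls and 37.6% ± 3.82 (SD, n = 3) with phenobarbital. In Cy5 it was 4.11% ± 1.22 in controls and 5.59% ± 1.21 with phenobarbital (SD, n = 3 each). The groups did not separate in either dye (two-sided exact permutation test over mice, p = 0.2 in each, where 0.1 is the smallest p that 3 against 3 can give). Phenobarbital mice 1 and 2 had the lowest Cy3 shares, 36.5% and 34.4%, and mouse 3 stood at 41.8%, inside the control range of 40.5% to 42.8%.

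In Cy3 alone, 4 cytochromes P450, 1 glutathione transferase and 2 histone H3 genes were higher with phenobarbital, and no gene was lower past the threshold. Cyp2a4, a steroid 15-alpha-hydroxylase, Cyp2c50, Cyp2c54 and Cyp2c55, which oxidize fatty acids and drugs, and Gstm3, a mu-class glutathione transferase, were higher by 1.49 to 1.88 on the log2 scale. H3c3 and H3c13, which encode replication-dependent histone H3, were higher by 1.30 and 1.27. Of 15641 genes or unnamed probes tested, 10 passed an adjusted p of 0.05 in limma, all of them higher with phenobarbital, which is 0.0639% of those tested. The other 3 were probes with no gene symbol in the tables used. Unadjusted, 989 were under 0.05 (6.32%), 511 of them higher (3.27%).

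Cyp2a4 read 9.19, 9.40 and 8.72 (log2 Cy3 signal, normalized) in control mice 1 to 3 and 10.74, 11.05 and 11.14 in phenobarbital mice 1 to 3. The lowest exposed mouse lay well above the highest control. Its difference of 1.87 ± 0.20 (SE) had an adjusted p of 0.0413 (limma, Benjamini-Hochberg). A second Cyp2a4 probe differed by 0.37, so the probes of this gene disagreed in size.

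Gstm3 read 12.24, 12.23 and 11.67 in controls and 13.63, 13.44 and 13.68 with phenobarbital. The groups did not overlap, and the difference was 1.53 ± 0.18 (limma adjusted p = 0.0419). Its other probe differed by 2.30. Gstm3 was also well above background on all 8 arrays in Cy5.

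Cyp2c55 read 8.29, 7.91 and 8.00 in controls and 10.47, 9.53 and 9.83 with phenobarbital, a difference of 1.88 ± 0.24 (limma adjusted p = 0.0480). Cyp2c54 read 9.16, 9.06 and 8.96 against 11.09, 10.57 and 10.47, a difference of 1.65 ± 0.18 (limma adjusted p = 0.0419), and its other 2 probes differed by 1.48 and 1.55. Cyp2c50 read 9.93, 9.71 and 9.34 against 11.27, 11.16 and 11.03, a difference of 1.49 ± 0.17 (limma adjusted p = 0.0419). In all 3 Cyp2c genes every exposed mouse was above every control. The Cyp2c genes are close paralogs, and probe sequences were not used here, so signal may be shared between them.

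H3c3 read 8.93, 8.97 and 9.01 in controls, and 10.34, 10.46 and 10.02 with phenobarbital (difference 1.30 ± 0.15, limma adjusted p = 0.0419). H3c13 read 9.54, 9.73 and 9.69 against 11.03, 11.09 and 10.64 (difference 1.27 ± 0.16, limma adjusted p = 0.0480). Histone H3 genes have nearly identical coding sequences, so which copy a probe reports is uncertain. The family was looked at whole after these values were seen: 7 H3c genes were tested, all 7 differences were above 0, from 0.22 to 1.30, and 2 passed.

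**Figure D2:**
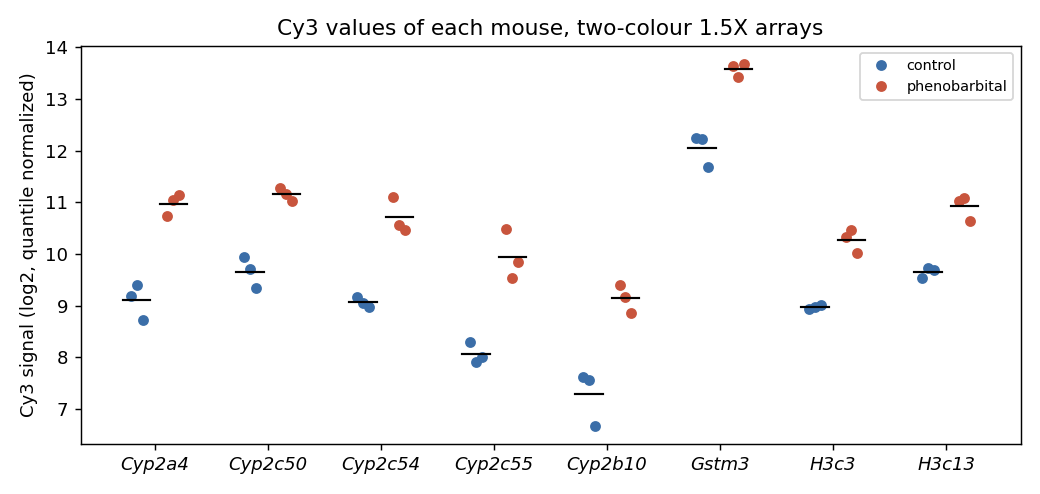
Cy3 signal (log2, quantile normalized, vertical axis) of each mouse for the 7 named genes that passed in Cy3 and for Cyp2b10; points are mice and black bars are group means. In each gene all 3 phenobarbital mice lie above all 3 controls.

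Promoter sequences are given for 4 of the called genes, to show the start regions of 3 drug-metabolism genes beside that of a histone gene. RefSeq's table (build GRCm38.p6, 250 bases before to 50 after the start) held 6 of the 7 named genes. Capitals mark AGGTCA, the half-site to which CAR and related receptors bind, CCAAT and TATAAA, each searched on both strands. The windows are chr7:26306942-26307241 on the plus strand, chr19:39006769-39007068 on the plus strand, chr3:107969125-107969424 on the minus strand and chr13:23745472-23745771 on the minus strand, in this order.
Cyp2a4: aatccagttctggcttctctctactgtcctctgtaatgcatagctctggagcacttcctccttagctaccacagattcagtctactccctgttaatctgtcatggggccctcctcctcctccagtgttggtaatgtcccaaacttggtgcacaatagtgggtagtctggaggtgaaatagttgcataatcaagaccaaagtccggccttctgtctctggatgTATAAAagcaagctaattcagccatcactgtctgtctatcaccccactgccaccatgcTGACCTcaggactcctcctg
Cyp2c55: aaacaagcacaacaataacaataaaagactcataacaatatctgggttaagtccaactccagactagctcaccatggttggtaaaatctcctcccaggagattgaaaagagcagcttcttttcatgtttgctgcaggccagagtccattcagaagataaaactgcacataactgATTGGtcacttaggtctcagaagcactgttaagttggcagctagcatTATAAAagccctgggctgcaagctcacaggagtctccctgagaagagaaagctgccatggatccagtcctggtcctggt
Gstm3: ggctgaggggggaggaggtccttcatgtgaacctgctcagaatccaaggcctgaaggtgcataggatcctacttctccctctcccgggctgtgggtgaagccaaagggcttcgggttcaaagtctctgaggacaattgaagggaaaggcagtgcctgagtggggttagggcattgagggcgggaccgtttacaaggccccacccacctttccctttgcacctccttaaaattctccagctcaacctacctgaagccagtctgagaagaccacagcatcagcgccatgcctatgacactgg
H3c3: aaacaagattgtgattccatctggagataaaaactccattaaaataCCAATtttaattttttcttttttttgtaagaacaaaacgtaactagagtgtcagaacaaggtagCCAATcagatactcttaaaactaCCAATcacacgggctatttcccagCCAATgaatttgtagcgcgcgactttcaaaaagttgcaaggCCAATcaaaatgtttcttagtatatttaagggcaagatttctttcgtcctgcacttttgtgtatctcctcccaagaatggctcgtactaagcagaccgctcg

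AGGTCA was present once, in Cyp2a4, and TATAAA once each in Cyp2a4 and Cyp2c55. H3c3 held 5 CCAAT matches, Cyp2c55 held 1 and Gstm3 held none of the 3 motifs. Of all 32851 promoter windows in the table, 16.3% held AGGTCA, 37.4% CCAAT and 13.6% TATAAA. These matches describe the windows only.

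Cyp2b10, the best-known CAR target of mouse liver, did not pass in Cy3. Its raw median Cy3 signal was 234 in control mouse 1, 182 and 181 in control mouse 2 and 132 in control mouse 3. In the exposed mice it was 632.5 and 631.5 in mouse 1, 542 in mouse 2 and 419 in mouse 3. The lowest exposed value was above the highest control. All 8 arrays called the probe well above background in Cy3. After normalization the difference was 1.85 ± 0.26 (limma adjusted p = 0.0824).

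The list of oxidases and reductases under CAR and its relative PXR had 46 members, of which 39 were tested in Cy3. 4 of the 39 passed, all higher (Cyp2a4, Cyp2c50, Cyp2c54 and Cyp2c55), and 34 had a difference above 0. Their median difference was 0.82, against -0.02 over all genes tested. 26 of the 39 were higher with no overlap between groups, where 5.34% of all genes tested were. Cyp3a44, among the 39, was well above background on no control array and was tested only through the exposed group. Por, the reductase that feeds electrons to every microsomal P450, read 10.54, 10.95 and 10.37 in controls and 11.81, 11.70 and 11.56 with phenobarbital. These Por values did not overlap, and the difference of 1.07 ± 0.17 missed the threshold (limma adjusted p = 0.135). Aldh1a1, a retinaldehyde dehydrogenase, differed by 1.07 ± 0.18 (adjusted p = 0.146), Cyp2c37 by 1.10 ± 0.18 (0.151), Cyp3a11, the main PXR-responsive P450, by 1.23 ± 0.25 (0.250) and Cyp2c29 by 0.97 ± 0.21 (0.348), all by limma and all without overlap.

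Among 36 tested conjugation enzymes of phase II, Gstm3 passed and no other did. The median difference of this list was 0.17, and 28 of the 36 lay above 0. Gstm4 differed by 1.16 ± 0.15 (limma adjusted p = 0.0557), Gstm1 by 1.07 ± 0.19 (0.210) and the theta-class Gstt3 by 1.58 ± 0.28 (0.210). Gstt3 read 10.67, 10.79 and 10.37 in controls and 12.45, 11.49 and 12.64 with phenobarbital, with exposed mouse 2 the lowest of its group.

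Of 18 drug and bile transporters none passed, and the median was 0.06. Abcc2, which exports conjugates into bile, differed by 0.87 ± 0.17 (limma adjusted p = 0.226) without overlap. None of the 22 drug-sensing receptors and partners passed. The receptor genes themselves differed by 0.57 ± 0.21 for Nr1i2 (PXR) and by -0.31 ± 0.14 for Nr1i3 (CAR), with limma adjusted p of 0.720 and 0.786.

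The cell cycle list had 21 of 38 members tested, and none passed. 16 lay above 0 and the median was 0.40, with 0.66 from processed signals and 0.21 after loess and Aquantile. Ube2c, which charges the anaphase-promoting complex with ubiquitin, read 7.02, 7.12 and 7.24 in controls and 8.17, 8.62 and 8.19 with phenobarbital (difference 1.20 ± 0.16, limma adjusted p = 0.0603). Ccnb1, the mitotic cyclin B1, read 6.95, 7.33 and 7.03 against 8.35, 8.04 and 8.30 (1.13 ± 0.16, limma adjusted p = 0.0755). Neither gene overlapped between groups. A second Ccnb1 probe that was also tested differed by 0.18.

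Acute phase genes varied from mouse to mouse within the exposed group. Orm3, an alpha-1-acid glycoprotein, read 8.64, 9.28 and 8.60 in controls but 9.64, 12.22 and 11.07 with phenobarbital, and Lcn2, an iron-scavenging lipocalin, read 8.57, 8.97 and 8.96 against 9.89, 11.79 and 10.73. Exposed mouse 2 was highest in both. The differences, 2.14 ± 0.55 and 1.97 ± 0.40, had limma adjusted p of 0.471 and 0.280, and both had 0.0491 without exposed mouse 1. None of the 24 tested acute phase genes passed. Their median was 0.13, and it turned to -0.02 with the processed signals, where 11 of 24 lay above 0 in place of 15.

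Genes of fuel metabolism mostly had differences below 0, without a call. Of 21 tested genes of PPAR alpha and fatty acid oxidation, 1 lay above 0, and the median was -0.20. Of 18 genes of glucose handling 3 lay above 0 (median -0.24), and of 31 hepatocyte secreted proteins 9 did (median -0.22). Of 65 subunits of oxidative phosphorylation 9 lay above 0 (median -0.13). No member of these 4 lists passed in limma.

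On array 2, which paired exposed mouse 2 in Cy3 with control mouse 1 in Cy5, Pcx and Apoc3 were among the genes that read low in both dyes. Pcx, pyruvate carboxylase, read 9.21 in exposed mouse 2 in Cy3, against 12.60 to 12.90 in the other 5 mice, and 5.90 in control mouse 1 in Cy5, against 7.14 to 7.85 in the others. Apoc3, an apolipoprotein, read 10.28 in exposed mouse 2 in Cy3, against 13.74 to 14.13, and 6.12 in control mouse 1 in Cy5, against 8.15 to 8.89. In the dye of another array neither mouse was low: exposed mouse 2 read 7.32 for Pcx and 8.25 for Apoc3 in Cy5, and control mouse 1 read 12.90 and 14.13 in Cy3. Exposed mouse 2 had its Cy3 label, and control mouse 1 its Cy5 label, on array 2 only. The cause of the low values was not tested. Neither Pcx nor Apoc3 passed in Cy3 (limma adjusted p = 0.811 for both). Fau, Atp5g3 and Csf3r were low in the same way. They read 10.31, 8.71 and 10.74 in exposed mouse 2 in Cy3. In control mouse 1 in Cy5 they read 5.82, 5.98 and 6.14, and each value was the lowest of all mice in its dye. The medians above for glucose handling, secreted proteins and oxidative phosphorylation include Pcx, Apoc3 and Atp5g3.

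Markers of other tissues were followed in Cy3 too. Of 25 tested genes of pancreas, adipose and muscle 4 had a difference above 0 and the median was -0.53, with none called. Cpa1, a pancreatic carboxypeptidase, read 13.20, 15.40 and 15.81 in controls and 13.09, 11.33 and 15.25 with phenobarbital, and these groups overlapped (-1.58 ± 0.96, limma adjusted p = 0.815). Its 11.33 in exposed mouse 2 came from array 2. In Cy5, on other arrays, that mouse read 8.16, above exposed mouse 1 at 7.53. Control mouse 1 had the lowest Cy5 value, 6.33, also on array 2. The summed level of the 30 markers ran from 16.68 to 18.96 (log2) in controls and from 16.69 to 18.62 with phenobarbital, and Ckm, Myh4 and Mylpf of muscle were well above background on no array. The summed hepatocyte markers ran from 18.55 to 18.72 in controls and from 18.41 to 18.48 with phenobarbital, without overlap. Sums for Kupffer cells, stellate cells, cholangiocytes, lymphocytes, neutrophils and red cells overlapped between groups. The endothelial sum was 12.59 to 12.66 in controls and 12.49 to 12.55 with phenobarbital, also without overlap. Their part in the gene differences was not tested.

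The number of calls in Cy3 moved with the mice and the settings used. Without any 1 of the 3 controls, without exposed mouse 2 or without exposed mouse 3, no gene passed, and without exposed mouse 1 there were 11, of which 6 were among the 10. Gstm3, Cyp2c50, H3c3 and H3c13 did not pass in any of these 6 fits, and Cyp2a4, Cyp2c54 and Cyp2c55 passed without exposed mouse 1 (limma adjusted p = 0.0375 for each). With dim probes kept in the test none passed either. With the row as a block 2 genes passed, Cyp2a4 (limma adjusted p = 0.0387) and 1 unnamed probe. Within row 1 and within row 2 the difference was 2.17 and 1.84 for Cyp2a4, 1.86 and 1.44 for Gstm3, 2.00 and 1.74 for Cyp2c55, and 1.39 and 1.07 for H3c3. It was 1.87 and 1.36 for Cyp2c54, 1.88 and 1.21 for Cyp2c50, 1.37 and 1.00 for H3c13, and 2.60 and 1.27 for Cyp2b10. All were above 0 in both rows, and each was larger in row 1. Row 1 holds a single control mouse and row 2 a single exposed mouse, and no mouse has Cy3 in both rows, so row and mouse cannot be told apart in these differences. With row as a block the difference was 2.01 for Cyp2a4, 1.65 for Gstm3, 1.54 for Cyp2c50 and 1.94 for Cyp2b10, larger than without it. It was 1.61 for Cyp2c54, 1.87 for Cyp2c55, 1.23 for H3c3 and 1.19 for H3c13, smaller than without it.

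In Cy5 alone, the same comparison could be made for 1687 genes or probes, and none passed in limma (0%), with 26 under an unadjusted p of 0.05 (1.54%). Of the 7 named genes called in Cy3, Gstm3 alone was bright enough in Cy5 to be tested. Gstm3 read 6.62, 7.00 and 6.67 in controls and 8.12, 7.82 and 7.61 with phenobarbital (log2 Cy5 signal, normalized). The exposed mice were all above the controls, by 1.09 ± 0.25 (limma adjusted p = 0.999, unadjusted 0.00336), the smallest unadjusted p among named genes in Cy5. Albumin, the main plasma protein, read 12.92, 11.25 and 11.37 against 10.69, 10.13 and 10.19, a difference of -1.51 ± 0.47 (limma adjusted p = 0.999), while in Cy3 it differed by -0.54 ± 0.26 and the groups overlapped. Rgs20, a regulator of G-protein signalling, was at -0.70 ± 0.24, and Gm12359 and the zinc-finger gene Zfp146 were at 1.01 ± 0.35 and 1.42 ± 0.53, with limma adjusted p of 0.999 for all 3. Gm12359 and Zfp146 were well above background on 1 and 3 of 4 control arrays in Cy5. Both were tested only through the exposed group, so a lean above 0 is partly built in. Within slide rows 1 and 2 the Cy5 difference was 1.58 and 0.19 for Gm12359 and 2.15 and 0.27 for Zfp146. In Cy3 Zfp146 differed by -0.25. Without control mouse 3, 4 genes passed in Cy5.

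For the CAR targets the Cy5 channel showed small differences or none that could be read. Cyp2b10 had raw Cy5 medians of 73 to 77 in exposed and 62 to 70 in control mice, near the negative controls, and was not well above background on any of the 8 arrays in Cy5. Cyp2a4 was well above background on 1 and Cyp2c55 on 2 of the 4 exposed Cy5 arrays, and on none of the control ones. Por was well above background in Cy5 on all 4 exposed arrays and on no control array. Its Cy5 difference of 0.52 ± 0.23 (limma adjusted p = 0.999) was thus taken against control values not above background. Of the 13 CAR and PXR list members tested in Cy5, 11 lay above 0 and the median was 0.14, against -0.0026 for all genes tested. Among them Por, Cyp2c38 and Cyb5a were well above background on all 4 exposed arrays but on 0, 1 and 1 of 4 control arrays. They were tested only through the exposed group, so a lean above 0 is partly built into this count and median. For 13 members tested in both dyes, which include Por, Cyp2c38 and Cyb5a, the difference between the dyes, Cy3 minus Cy5, had a median of 0.42.

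Tested directly, no gene passed for a difference in its phenobarbital effect between Cy3 and Cy5 (limma, 0 of 1674 genes, 0%, and 80, or 4.78%, under an unadjusted p of 0.05). Among the smallest unadjusted p were those of Lzts3 (Cy3 minus Cy5 1.42 ± 0.31), Golga7b (1.75 ± 0.39), Gstm1 (1.09 ± 0.26) and Dnajc19 (1.44 ± 0.38). Each had a limma adjusted p of 0.810. Lzts3, Golga7b and Dnajc19 went opposite ways, with 0.78, 0.93 and 0.62 in Cy3 and -0.63, -0.81 and -0.82 in Cy5. Within slide row 1 they were at 1.26, 1.55 and 0.96 in Cy3 and -1.04, -1.51 and -1.83 in Cy5. Within row 2 they were at 0.22, 0.17 and 0.07, and at -0.10, -0.10 and 0.10. A second tested Dnajc19 probe differed by -0.17 in Cy3. Gstm1 differed by 1.07 in Cy3 and by -0.02 ± 0.29 in Cy5. Gstm3 differed by 0.45 ± 0.31 between the dyes (limma adjusted p = 0.999). The median spread within groups, 0.46 for this difference and 0.19 for Cy3 alone, limits what could pass.

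With both dyes of a mouse averaged, none of 1674 genes passed in limma (0%), and 28 were under an unadjusted p of 0.05 (1.67%). Each mean holds both dyes and both slide rows, but a row effect that differs between the dyes does not cancel in it. Gstm3 again had the smallest p. It read 9.42, 9.71 and 9.16 in controls and 10.93, 10.75 and 10.56 with phenobarbital, a difference of 1.32 ± 0.21 (limma adjusted p = 0.953). Albumin was at -1.24 ± 0.34, the acute phase gene Saa2 at 1.06 ± 0.30, Cyp2c38 at 0.53 ± 0.15 and the histone gene H2ac22 at 0.60 ± 0.18, each with no overlap and a limma adjusted p of 0.999. Among all 1674 genes 3.64% did not overlap. Por, whose Cy5 controls were not above background, was at 0.60 ± 0.20 and Gstt3 at 0.75 ± 0.23 (both 0.999). In Cy5 the control arrays well above background were 3 of 4 for Saa2, 2 of 4 for H2ac22 and Gstt3, and 1 of 4 for Cyp2c38. These genes too were tested only through the exposed group. Of 13 CAR and PXR list members tested 11 lay above 0, with a median of 0.45 against 0.03 over all genes. Por, Cyp2c38 and Cyb5a were tested here only through the exposed group, so a lean above 0 is again partly built in.

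The authors' log ratios within single arrays could be read where a gene was above background in both dyes on every array, as Gstm3 was. The deposited Gstm3 ratio of phenobarbital over control, put on the log2 scale, was 1.61, 1.79, 1.85, 1.61, 1.26, 1.93, 1.91 and 1.89 on arrays 1 to 8, above 0 on every array and in both orientations. Other drug-metabolism genes above background in both dyes on every array were less even. Cyp3a11 ran from -0.53 (array 1) to 1.39 (array 4) and Aldh1a1 from -0.12 (array 8) to 1.28 (array 3). Gstm1 ran from -0.09 (array 7) to 2.29 (array 6) and Gstm4 from 0.07 (array 1) to 1.43 (array 7). Cyp2b10 was above background in Cy5 on none of the 8 arrays, so each of its ratios is set against a value at background and none is given as a level of change.

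The Cy3 effect was then set against one-colour arrays of the same 6 mice, which carry Cy3 only. Against the one-colour arrays at 1.5X input, the effect of phenobarbital was smaller in two-colour Cy3 for Cyp2b10, Gstm3, Cyp2c55, Por and Gadd45b, and larger for Golga7b, Zfp133-ps, Armcx3, Synj2 and Med13. In limma 72 of 12127 genes differed (0.594%), 44 with a higher value (0.363%) and 28 with a lower value (0.231%) in two-colour Cy3. Unadjusted, 1059 were under 0.05 (8.73%). Without control mouse 1 or control mouse 2 no gene passed. There were 34 without control mouse 3, and 10, 30 and 36 without exposed mice 1, 2 and 3. The scanner software's processed signals gave 9. Slide and scan session differ between these sets and cannot be told apart from the format.

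Cyp2b10 differed by 1.85 in two-colour Cy3 and by 3.64 on the one-colour 1.5X arrays, a gap of -1.79 ± 0.27 (limma adjusted p = 0.0253). Its control values were 7.61, 7.57 and 6.68 in two-colour Cy3, all well above background, and 6.62, 6.82 and 6.78 on the one-colour arrays, where none of 3 was, so the difference of 3.64 is taken against values at background. The exposed mice read 9.40, 9.16 and 8.86 against 10.79, 10.50 and 9.87. Two-colour minus one-colour, control mice 1 to 3 stood at 0.99, 0.75 and -0.11 and exposed mice 1 to 3 at -1.388, -1.346 and -1.005. Control values were also set no lower than the dimmest signal flagged well above background. Cyp2b10 then came out 12.3-fold higher with phenobarbital on one-colour 1.5X arrays and 9.57-fold on one-colour 1X arrays. These are estimates from 3 against 3 mice and not lower limits.

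Gstm3 showed the same kind of gap, 1.53 in two-colour Cy3 and 3.02 on one-colour 1.5X arrays (-1.49 ± 0.18, limma adjusted p = 0.0158). Controls were close, 12.24, 12.23 and 11.67 in Cy3 and 12.37, 12.41 and 12.24 on one-colour arrays, and the exposed mice were lower in the two-colour set, 13.63, 13.44 and 13.68 against 15.30, 15.21 and 15.59. Cyp2c55 differed by 1.88 and 3.36 (gap -1.47 ± 0.24, limma adjusted p = 0.0275), and Por by 1.07 and 2.24 (-1.17 ± 0.21, 0.0454). Gadd45b, a stress sensor induced in growing liver, differed by 0.66 and 2.01 (-1.35 ± 0.24, 0.0425).

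For the other genes called in Cy3 the gap did not pass. Cyp2a4 had a gap of 0.22 ± 0.24 (limma adjusted p = 0.801) and H3c3 one of -0.13 ± 0.27 (0.910), with H3c13 at -0.03 ± 0.25 (0.980). Cyp2c50 had -0.28 ± 0.17 (0.656) and Cyp2c54 -0.67 ± 0.18 (0.213). Of 38 CAR and PXR list members tested, 3 passed with a smaller effect in two-colour Cy3 (Cyp2b10, Cyp2c55 and Por) and none with a larger one, and 13 had a gap above 0. Their median gap was -0.24, against -0.03 over all genes. In the cell cycle list 2 of 20 had a gap above 0, 1 passed and the median was -0.38.

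**Figure D3:**
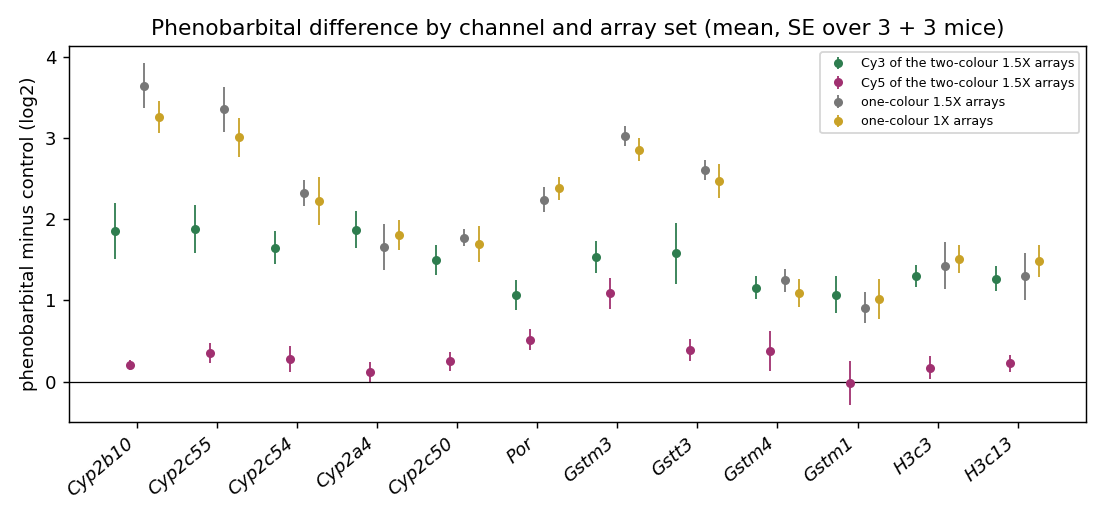
Phenobarbital minus control (log2, vertical axis) for 12 drug-metabolism and histone genes in Cy3 and Cy5 of the two-colour 1.5X arrays and on one-colour arrays at 1.5X and 1X; points are means of 3 against 3 mice and bars are the standard error. Gstm3 lies at 1.53, 1.09, 3.02 and 2.85 in this order; of the 12 genes only Gstm1, Gstm3 and Gstm4 were well above background on all 8 arrays in Cy5, and Cyp2b10 controls on no one-colour array, so the other Cy5 points and the one-colour points of Cyp2b10 rest partly or wholly on values at background.

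Of the 44 genes or probes with a higher value in two-colour Cy3, 26 had a symbol. All 44 had a one-colour 1.5X difference below 0 (median -0.74) and a two-colour Cy3 difference above 0 (median 0.70). The 44 were picked by the gap between these same differences, so a lean to opposite signs is partly built in. Golga7b read 12.79, 12.24 and 12.05 in controls and 13.93, 13.27 and 12.68 with phenobarbital in two-colour Cy3, with overlap. On the one-colour 1.5X arrays it read 13.34, 13.04 and 12.46 against 12.40, 12.12 and 11.73, the other direction (gap 1.80 ± 0.20, limma adjusted p = 0.0158). Zfp133-ps had a gap of 1.66 ± 0.25 (0.0253), Armcx3 of 1.55 ± 0.24 (0.0262), Synj2, an inositol phosphatase, of 1.50 ± 0.24 (0.0275), and Med13, a Mediator subunit, of 1.46 ± 0.23 (0.0258).

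The Cy3 difference of these genes was not the same within each slide row, where each row has 1 group with a single mouse. Over the 44, the median Cy3 difference was 1.09 within row 1 and 0.01 within row 2. The genes were picked partly by these same Cy3 values, so the row medians are no separate evidence. For Golga7b it was 1.55 and 0.17, for Zfp133-ps 1.34 and -0.12, and for Med13 1.28 and 0.23. Over the 28 genes with a lower value, picked in the same way, the medians were -0.69 in row 1 and 0.84 in row 2. Gm6498, among those 28 with a gap of -1.36 ± 0.22 (limma adjusted p = 0.0295), was at -1.15 and 0.86. Over all genes tested in Cy3 the median difference was 0 in row 1 and -0.03 in row 2. The part of the slide row in these gaps was not tested.

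**Figure D4:**
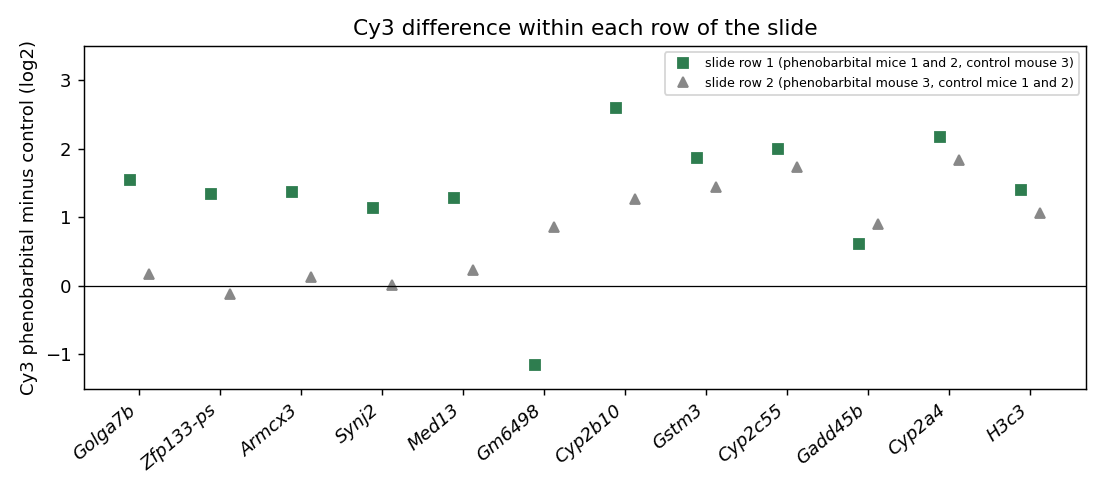
Cy3 phenobarbital minus control (log2, vertical axis) within slide row 1 (squares) and row 2 (triangles) for the 10 genes with the largest gaps between two-colour Cy3 and one-colour 1.5X arrays, and for Cyp2a4 and H3c3. Golga7b is at 1.55 in row 1 and 0.17 in row 2, and Cyp2a4 at 2.17 and 1.84.

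Against one-colour arrays at 1X input no gene passed in limma (0 of 15546, 0%, with 541, or 3.48%, under an unadjusted p of 0.05). Input, slide and format cannot be told apart here. The genes with the smallest p were Gstm3 (-1.32 ± 0.13, adjusted p = 0.103), Por (-1.31 ± 0.17, 0.295), Cyp2c55 (-1.13 ± 0.16, 0.295), Trib3, a pseudokinase of the stress response (-0.77 ± 0.12, 0.600), and Abcc3, an efflux pump of the sinusoidal membrane (-0.70 ± 0.12, 0.794). All 5 had the smaller phenobarbital effect in two-colour Cy3, with no overlap between groups, where 4.76% of all genes were lower without overlap. Cyp2b10 was at -1.40 ± 0.26 (limma adjusted p = 0.794) and Golga7b at 0.62 ± 0.22 (0.982).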

How the data were processed

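Spot intensity was deposited by the authors as Agilent Feature Extraction 11.0.1.1 output, per the file headers, with median and processed signals in Cy3 and Cy5, the flag for signal well above background, and a log10 ratio of red over green. The deposited value table held the authors' log10 ratio turned to phenobarbital over control on all 8 arrays. From the median signals, normexp background correction (offset 50) was followed by quantile normalization per dye for single-dye results, or by loess (span 0.3) and Aquantile for both dyes, and values were put on the log2 scale. Control spots were left out. Repeat arrays were averaged to 1 value per mouse (3 against 3), and limma 3.58.1 in R 4.3.3 tested all genes or unnamed probes detected, with Benjamini-Hochberg adjustment at 0.05. The number of arrays limits the precision.

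Members and gene lists were chosen with earlier results of these data known. Genes were named by a rule: up to 10 higher and 10 lower (5 and 5 for Cy5 and for tests of a difference) that passed with no overlap, or the 5 smallest p where none passed, with a fixed panel and leading members of the lists. The two-sided exact permutation test was used for shares. Replicate numbers were not taken to pair the mice: same-numbered mice correlated at 0.285, -0.0437 and 0.30 in Cy3. Numbers 1 and 3 were each other's best match there, and number 2 was not. Alternatives were other normalizations, offsets, filters, probes, row and replicate blocks, and leaving out mice. Two-colour 1X arrays were not used here. The fits were tested on simulated data. Some results that the naming rule would give are not reported here.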

Additional observations from a re-analysis of the deposited data

Results flagged for a closer look

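Among the 4 control arrays in Cy3, the second array of control mouse 2 had 38.6% of probes well above background and stood apart from the other 3, which lay at 42.2% to 42.8%. The first array of the same mouse stood at 42.5%, so the 4 arrays are not 4 mice. How often such a gap would arise by chance was not tested.

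The phenobarbital effect differed between two-colour Cy3 and the one-colour 1.5X arrays for 72 genes or probes in limma. The gap was 1.80 for Golga7b, 1.66 for Zfp133-ps, 1.55 for Armcx3, 1.50 for Synj2 and 1.46 for Med13. It was -1.79 for Cyp2b10, -1.49 for Gstm3, -1.47 for Cyp2c55, -1.36 for Gm6498 and -1.35 for Gadd45b.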

How the results depend on the processing

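In Cy3 the 10 calls became between 0 and 11 when 1 mouse was left out, 0 with no filter on dim probes, and 2 with the slide row as a block. Values after loess and Aquantile gave 15, with all 10 among them, and processed signals gave 9, with 6 of the 10. The fit with the replicate number as a block gave 6, of which 5 were shared with the 10. All 10 kept their direction under every alternative run. In Cy5 leaving out 1 mouse gave 0 to 4 calls. Against one-colour 1.5X arrays the 72 became 0 to 36 when 1 mouse was left out, 27 with the replicate block and 9 with processed signals, and all 72 kept their direction. Counts for both dyes together, for Cy3 against Cy5 and against one-colour 1X arrays were 0 under every alternative run. With processed signals the gap of Cyp2a4 turned to -0.042 against one-colour 1.5X and -0.21 against 1X arrays, and Cy3 minus Cy5 turned to -0.63 for Gstm3 and -0.64 for Por. Gstm1 in Cy5 turned to 0.50 with processed signals and 0.14 with the row block, and ran from -0.25 to 0.13 when 1 mouse was left out. Leaving out 1 mouse, the gap of Cyp2a4 against 1X arrays ran from -0.060 to 0.18 and that of H3c3 against 1.5X arrays from -0.48 to 0.088. In Cy3 list medians, acute phase turned from 0.13 to -0.02 and, with processed signals too, oxidative phosphorylation moved from -0.13 to -0.24, phase II enzymes from 0.17 to 0.30, transporters from 0.06 to 0.03 and PPAR alpha genes from -0.20 to -0.32, and secreted proteins moved from -0.22 to -0.11 after loess and Aquantile. The cause was not tested. Cy5, with under 8% of probes well above background, limits every result that uses it.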
